A study of Homo sapiens with 6 samples.

Results

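The SR splicing factors and the hnRNPs were examined as a set of 33 genes in PC-3 cells with and without inducible TTP. The set was taken from the authors' gene-level table by symbol: every gene whose symbol starts with SRSF or HNRNP, together with TRA2A and TRA2B, provided that its row carries the name of a protein-coding RefSeq transcript. HNRNPD was not part of the set. This gave 14 SRSF and TRA2 genes and 19 HNRNP genes among 18984 gene symbols with such a name. PC-3 is an established human line of epithelial prostate cancer cells. Both groups of cells carried the rtTA2 transactivator from a pRetroX-Tet-On-Advanced retrovirus and were resistant to G418. The tdTom group had in addition received pRetroX-Tight-pPGK-tdTomato and served as the control. The TTP-tdTom group had received pRetroX-Tight-TTP-pPGK-tdTomato, in which a doxycycline (Dox) dependent promoter drives TTP. Both were populations selected for tdTomato, and both were kept in 300 ng/ml Dox for 4 hours. The construct with or without TTP is the labelled difference between them. The groups came from separate infections, and other differences between the populations were not tested. RNA was sequenced from 3 samples of each group, and the comparison asks which of these splicing factor mRNAs had other levels in the TTP-tdTom group.

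Decay of an mRNA is promoted when the protein TTP binds AU-rich elements in its 3′UTR. SR proteins have RNA recognition motifs and a tail of alternating serine and arginine residues, bind enhancer sequences in exons and recruit the spliceosome. The hnRNPs are abundant nuclear proteins that coat new transcripts, and many of them act against SR proteins at splice sites. Many proteins of both kinds control the levels of their own mRNAs, in part through alternative exons or introns that send the transcript to nonsense-mediated decay.

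For each gene the table holds 1 FPKM value per group (fragments divided by transcript length and by the size of the library), which is the authors' value over the 3 samples. Values of single samples were not analysed here, so no spread between replicates and no test stands behind the ratios below, and the depth behind a value is unknown. Ratios are given as TTP-tdTom over tdTom on the log2 scale with no pseudocount. A gene is called lower or higher past 1.5-fold when the ratio is at least that far from 1, which is 0.585 on the log2 scale. Over the 11616 gene symbols with a mean FPKM of at least 1, 22.9% were lower past 1.5-fold and 1.74% were higher, and the median log2 ratio was -0.24. Ratios of the set are therefore set against a table in which 80.8% of genes were below 0. In RNA from whole cultures, fewer cells with an mRNA and less of it per cell cannot be told apart. ZFP36, which encodes TTP, had an FPKM of 5.56 in tdTom cells against 5.54 in TTP-tdTom cells, so that its own row showed no excess in the group labelled TTP-tdTom. Whether fragments of the transgene were counted there was not analysed here. The epithelial markers KRT8, KRT18, KRT19 and EPCAM had an FPKM between 15.1 and 98.2 in both groups, while CDH1 was at 0.119 in tdTom cells and 0.390 in TTP-tdTom cells. The 4 markers of prostate luminal cells lay between 0.280 and 2.53, the 4 of stromal cells between 0 and 4.56, the 3 of endothelial cells between 0.0872 and 0.793, and the leukocyte markers PTPRC and CD3E between 0.243 and 0.733. The row that holds the leukocyte marker CD68, at 323.2 and 262.1 FPKM, also names EIF4A1 and other genes, and its values cannot be assigned to CD68.

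Of the 33 genes, 31 had a mean FPKM of at least 1. The other members were SRSF12, a paralog of SRSF10, at an FPKM of 0.152 in tdTom cells against 0.298 in TTP-tdTom cells, and HNRNPCL1, a relative of HNRNPC, at 0.158 and 0.175. Of the 31, 30 had a log2 ratio below 0, as had 80.8% of all genes. Only 19 of the 31 lay below the median of all genes. In all, 8 of the 31 members, or 25.8%, were lower past 1.5-fold, close to the 22.9% of all genes, and 0 were higher. By class, 7 of the 13 SRSF and TRA2 genes were lower past 1.5-fold, or 53.8%, against 1 of the 18 HNRNP genes, or 5.56%. After centring on the median of all genes these counts were 4 of 13 and 0 of 18, as SRSF2, SRSF11, TRA2A and HNRNPAB were no longer past 1.5-fold, and 13.2% of all genes were past it. The median log2 ratio was -0.59 for the SRSF and TRA2 genes and -0.26 for the HNRNP genes, beside -0.24 for all genes, and after centring it was -0.35 and -0.018. With a mean FPKM of at least 10, which leaves out SRSF8 and SRSF10, the class medians were -0.43 and -0.26. The median of all such genes was -0.27.

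**Figure D1:**
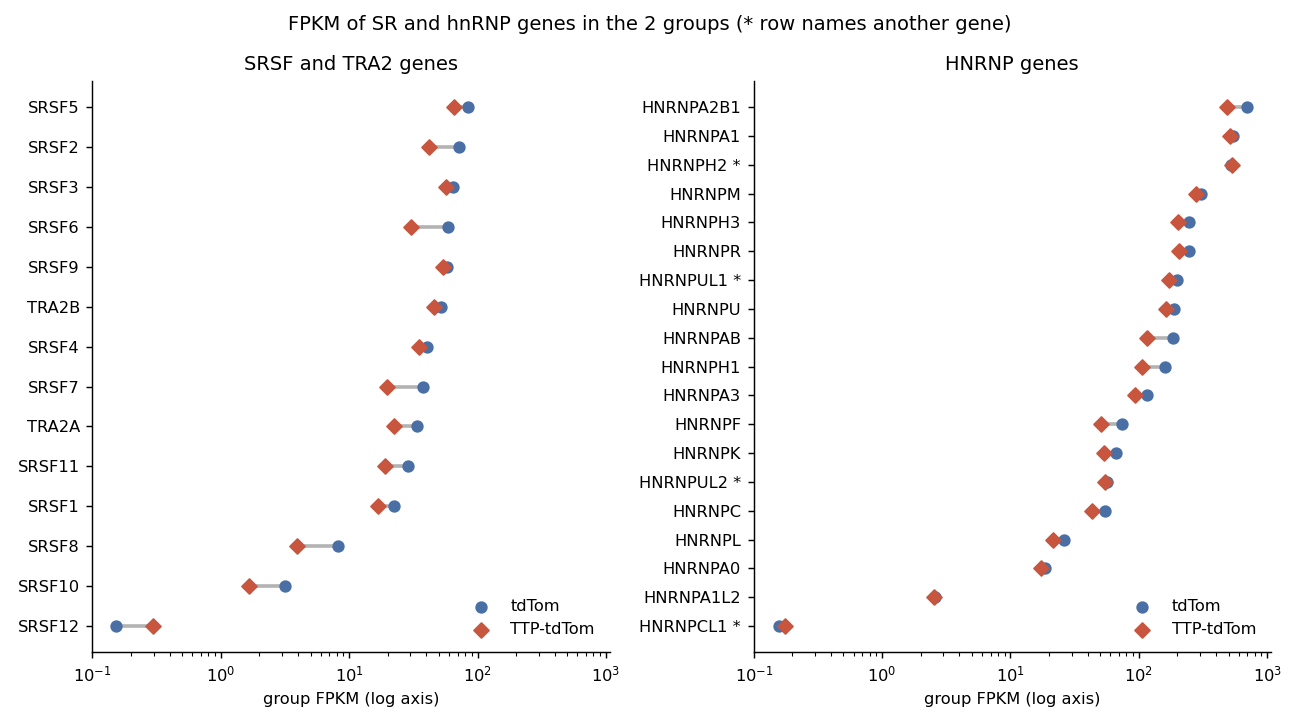
Group FPKM of each of the 33 genes on a log axis, tdTom as circles and TTP-tdTom as diamonds, ordered by the tdTom value within SRSF and TRA2 genes (left) and HNRNP genes (right); an asterisk marks a row that also names another gene. The widest gaps lie among the SRSF genes, whereas HNRNPA1 and HNRNPM have nearly the same value in both groups.

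SRSF8, SRSF6, SRSF10 and SRSF7 had the lowest ratios of the whole set. SRSF8 is a close relative of SRSF2 and lies on chromosome 11 of GRCh37 from 94800056 to 94804945. Its level was 8.26 FPKM in tdTom cells against 3.90 in TTP-tdTom cells, a log2 ratio of -1.08, and it was the only member past 2-fold, which 8.26% of all genes were. SRSF6, which binds exonic enhancers and has a long serine and arginine tail, lies on chromosome 20 from 42083654 to 42093403. It had 58.4 FPKM in tdTom cells against 30.5 in TTP-tdTom cells, which leaves 52.3% of the control value. At a log2 ratio of -0.94 it was lower than all but 10.0% of the 11616 genes, and among the 33 members ordered by FPKM it stood at rank 17 in tdTom cells and at rank 22 in TTP-tdTom cells.

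SRSF7, the SR protein with a zinc knuckle, lies on chromosome 2 from 38969892 to 38980396. It had 37.3 FPKM in the tdTom group against 19.9 in the TTP-tdTom group, a log2 ratio of -0.91. SRSF10, a splicing factor known for its activity after dephosphorylation, had nearly the same log2 ratio of -0.92 at a far lower level, 3.14 FPKM against 1.66. The same 6 RefSeq names of SRSF10 stand at a second row, on the scaffold GL000191.1, where the FPKM was 0.885 in tdTom cells against 0.476 in TTP-tdTom cells. The ratios at the rows were close, 0.530 and 0.538, and how fragments were divided between them was not analysed here.

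SRSF2 and SRSF11 made up the rest of the SRSF genes past 1.5-fold. SRSF2, which like SRSF1 is a founding member of the family, lies on chromosome 17 in a row from 74722882 to 74788971. It had the highest level of the SRSF genes past the threshold, with 72.2 FPKM in tdTom cells against 41.7 in TTP-tdTom cells, and a log2 ratio of -0.79. SRSF11 had 28.9 FPKM against 18.9, a log2 ratio of -0.62, and thus lay close to the threshold.

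The other SRSF genes stayed inside 1.5-fold. SRSF1, the classical splicing factor ASF/SF2, had 22.5 FPKM in tdTom cells against 16.7 in TTP-tdTom cells, a log2 ratio of -0.43. Of the windows of 75 bases, the read length, in its longest mRNA, 57.4% also occur in an annotated transcript of another gene. SRSF5 had 85.1 against 66.1 FPKM, the highest level of the class, and a log2 ratio of -0.36. SRSF4, SRSF3 and SRSF9 were nearest to their control values. SRSF4 had 40.5 FPKM in tdTom cells against 35.2 in TTP-tdTom cells. SRSF3, the smallest SR protein and one that also acts in mRNA export, had 65.0 and 56.7 FPKM, and SRSF9 had 57.8 and 53.5. Their log2 ratios of -0.20, -0.20 and -0.11 were all above the median of all genes.

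TRA2A and TRA2B encode the human relatives of the fly splicing regulator Transformer-2. TRA2A, on chromosome 7 from 23544133 to 23571656, had 33.6 FPKM in tdTom cells against 22.3 in TTP-tdTom cells. Its log2 ratio of -0.594 was just past the threshold, and it was no longer past it with 1 added to each FPKM value, after centring on the median of all genes or after rescaling to the same sum. TRA2B, on chromosome 3 from 185629723 to 185656337, had 52.3 and 45.6 FPKM and a log2 ratio of -0.20, so that the more abundant paralog was the one nearer to its control value.

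**Figure D2:**
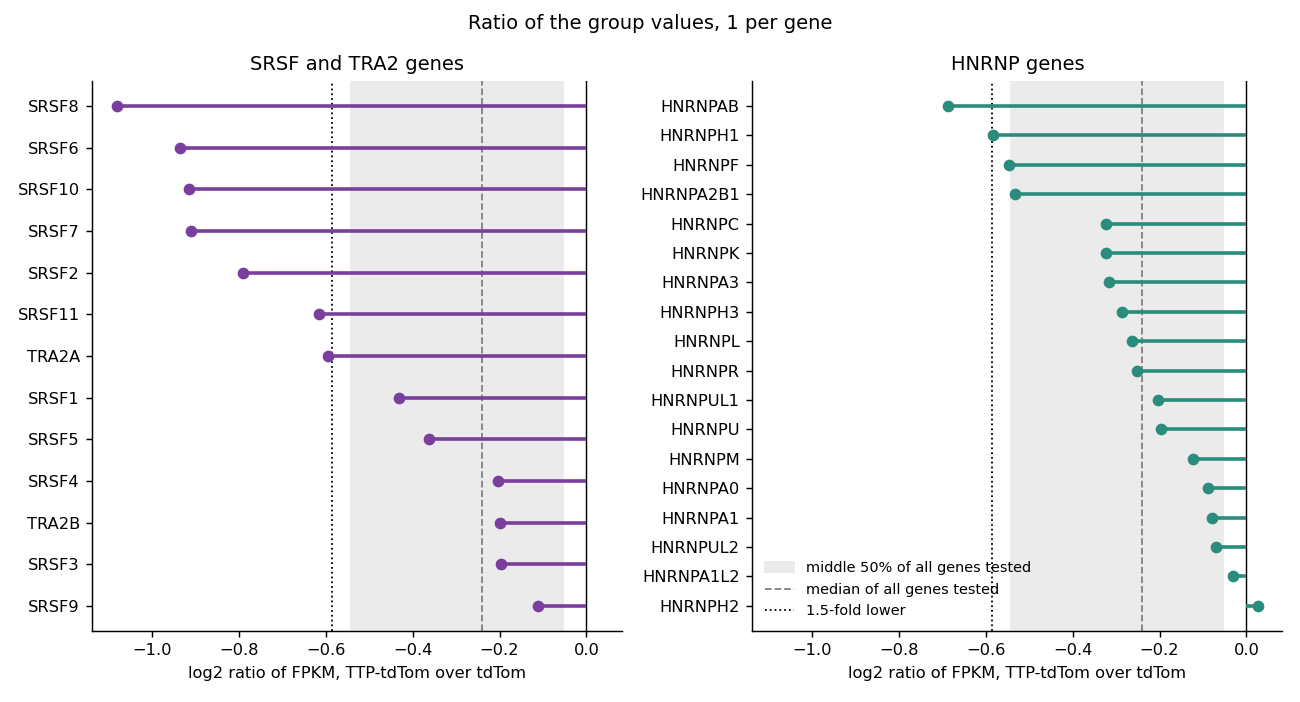
Log2 ratio of the group FPKM values, TTP-tdTom over tdTom, for the 31 members with a mean FPKM of at least 1, SRSF and TRA2 genes on the left and HNRNP genes on the right. The grey band covers the middle 50% of all 11616 genes, the dashed line their median and the dotted line 1.5-fold lower; 7 SRSF and TRA2 genes and HNRNPAB reach the dotted line.

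Close paralogs of the SRSF class with a mean FPKM of at least 1 differed in log2 ratio by as little as 0.16, between SRSF4 and SRSF5, and by as much as 0.73. SRSF4, SRSF5 and SRSF6 share the same domain plan, yet the log2 ratio of SRSF4 was 0.73 above that of SRSF6, and that of SRSF5 was 0.57 above it. SRSF3 lay 0.71 above SRSF7, the other member of its pair, whereas SRSF8 and SRSF2 were both past 1.5-fold and 0.29 apart. The log2 ratio of TRA2A minus that of TRA2B was -0.40, and that of SRSF1 minus that of SRSF9 was -0.32. No error is attached to these differences, as each is made from 1 value per gene and group.

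Among the A/B type hnRNPs, HNRNPAB was past 1.5-fold and HNRNPA2B1 came near it. HNRNPAB, an RNA-binding protein also known from the transport of mRNAs, lies on chromosome 5 in a row from 177631508 to 177659812. It had 185.6 FPKM in tdTom cells against 115.3 in TTP-tdTom cells, a log2 ratio of -0.69. HNRNPA2B1, whose proteins bind and sort many RNAs, lies on chromosome 7 from 26229556 to 26253227. It was the most abundant member in the tdTom group with 700.4 FPKM, and had 484.4 in the TTP-tdTom group, a log2 ratio of -0.53. This was also the largest difference in FPKM of the whole set. In the TTP-tdTom group HNRNPA2B1 stood at rank 3 instead of 1, behind HNRNPA1 and the row of HNRNPH2. The HNRNPH2 row also names RPL36A, so its rank cannot be assigned to HNRNPH2.

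The other A/B genes had ratios closer to 1. HNRNPA1, which represses exons and is the most studied hnRNP, had 539.7 FPKM in tdTom cells against 510.7 in TTP-tdTom cells, and its log2 ratio of -0.08 was above that of 71.6% of all genes. HNRNPA3 had 115.6 and 92.9 FPKM, with a log2 ratio of -0.32. HNRNPA0, which is encoded by a gene without introns, had 18.5 and 17.4 FPKM, and HNRNPA1L2, a retrocopy of HNRNPA1, had 2.57 and 2.51. Copies limit the reading of some of these values. Of the 75-base windows in the longest mRNA of HNRNPA1L2, 44.2% occur exactly in transcripts of other genes, and so do 27.2% of those of HNRNPA1 and 14.8% of those of HNRNPA3, while HNRNPA2B1 and HNRNPAB share 0.

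The F/H genes, whose proteins bind runs of G, included a pair just inside the threshold. HNRNPH1, on chromosome 5 from 179040566 to 179051607, had 160.0 FPKM in tdTom cells against 106.8 in TTP-tdTom cells, and its log2 ratio of -0.584 missed 1.5-fold by less than any other member. HNRNPF, on chromosome 10 from 43881065 to 43904696, had 74.6 and 51.0 FPKM and a log2 ratio of -0.55. HNRNPH3 had 247.8 and 203.2 FPKM, a log2 ratio of -0.29. HNRNPH2 was the only member with a mean FPKM of at least 1 above 0, at a log2 ratio of 0.03 with 521.2 and 531.3 FPKM, but its row on chromosome X also names RPL36A, a ribosomal protein gene, and the value cannot be assigned to either.

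The log2 ratios of the C, K, L, M, R and U type hnRNPs with a mean FPKM of at least 1 lay between -0.32 and -0.07. HNRNPC, which binds runs of U, had 54.3 FPKM in tdTom cells against 43.4 in TTP-tdTom cells, and HNRNPK, a protein that binds runs of C with KH domains, had 67.0 and 53.6. Both had a log2 ratio of -0.32. HNRNPL, which binds CA repeats and shares 27.8% of its 75-base windows with other genes, had 26.0 and 21.6 FPKM, and HNRNPR had 245.8 and 206.3, with log2 ratios of -0.26 and -0.25. HNRNPM, a regulator of splicing in the epithelial to mesenchymal transition, had 302.6 and 277.8 FPKM and a log2 ratio of -0.12. HNRNPU, which binds RNA and chromatin, had 188.1 and 164.2 FPKM and a log2 ratio of -0.20. The rows of its relatives HNRNPUL1 and HNRNPUL2 also name AXL and BSCL2 and had log2 ratios of -0.20 and -0.07.

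**Figure D3:**
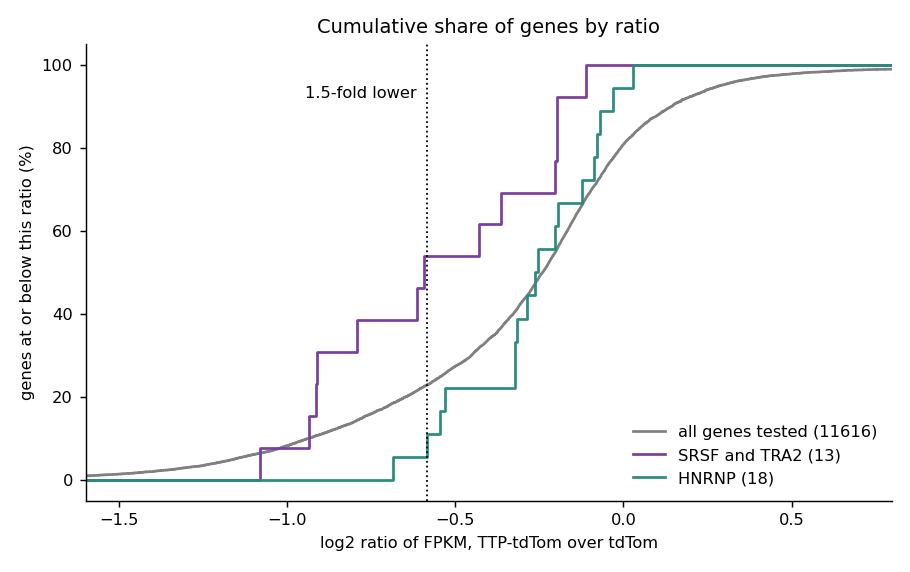
Cumulative share of genes (vertical axis, %) with a log2 ratio at or below the value on the horizontal axis, for all 11616 genes, 13 SRSF and TRA2 genes and 18 HNRNP genes. At the dotted line of 1.5-fold lower the SRSF and TRA2 curve stands at 53.8%, all genes at 22.9% and the HNRNP curve at 5.56%.

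In total FPKM, the 13 SRSF and TRA2 genes came to 564.9 in tdTom cells against 412.5 in TTP-tdTom cells, so that 73.0% was left. The 18 HNRNP genes came to 3705 and 3109, of which 83.9% was left, against 83.0% for the sum over all 11616 gene symbols. A row that names several genes can enter that sum for each of their symbols. Without the 3 HNRNP rows that also name another gene, the other 15 came to 2929 and 2351, of which 80.3% was left. The median FPKM in the tdTom group was 40.5 for the SRSF and TRA2 genes and 172.8 for the HNRNP genes, and 15.1% of all genes with a mean FPKM of at least 50 were lower past 1.5-fold. The part of level in the counts by class was not tested. Among genes with a mean FPKM of at least 10, 6 of 28 members were lower past 1.5-fold against 24.0% of all such genes, and 0 were higher against 0.114%. When a gene was called lower at 80% or less of its control value, which 40.6% of all genes met, the counts were 9 of 13 and 6 of 18, and 0 members were higher by the same factor against 4.30% of all genes. Past 2-fold 0 members were higher, against 0.775%.

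A heptamer typical of AU-rich elements, TATTTAT in DNA letters, was looked for in GENCODE release 29, on the sense strand only and in the longest 3′UTR annotated for a gene, with overlapping copies counted. It was present in 7 of the 13 SRSF and TRA2 genes, or 53.8%, and in 4 of the 18 HNRNP genes, or 22.2%, against 36.2% of the 11446 genes with an annotated 3′UTR. The 3′UTRs of the SRSF and TRA2 genes were longer, with a median of 2046 bases against 1394. Among 3′UTRs of 1000 to 3000 bases it was present in 4 of 6 SRSF and TRA2 genes and in 39.4% of all genes. The sites of the 5 SRSF and TRA2 genes past 1.5-fold that hold the heptamer are shown 5′ to 3′ with the heptamer in capitals and 9 bases on each side, since these are the letters on which the comparison of the members rests.
SRSF8: ggtgaggtaTATTTATtaaatggga
SRSF10: ttcagcaaaTATTTATtgagccctt
SRSF7: tggcaggctTATTTATctgttgcac
SRSF11, first copy: ccgtatttgTATTTATttacgctac
SRSF11, second copy: ttcttaggaTATTTATtttcagtga
TRA2A: gacaaccctTATTTATtacctagag

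These sites begin at base 1806 of the 3′UTR in SRSF8, 613 in SRSF10, 1442 in SRSF7, 1225 and 2084 in SRSF11, and 633 in TRA2A. For comparison, the sites of SRSF3 and TRA2B, which stayed above the median of all genes, and the most abundant member, HNRNPA2B1, are shown in the same way.
SRSF3: taaacaaatTATTTATttccacctt
TRA2B: aatttgtagTATTTATatataaagt
HNRNPA2B1: catttgttgTATTTATggttgtaac

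Of the 11 members with the heptamer 5 were lower past 1.5-fold, or 45.5%, at a median log2 ratio of -0.53, against 3 of the 20 without it, or 15.0%, at a median of -0.275. Members with and without it lay on both sides of 1.5-fold. SRSF6 and SRSF2, at log2 ratios of -0.94 and -0.79, had 0 copies in 3′UTRs of 3184 and 2046 bases, and so had HNRNPAB in 540 bases. TRA2A and TRA2B had 1 copy each, as had SRSF7 and SRSF3, although the members of each pair differed. HNRNPR had the most copies of all members, 5 in 5766 bases, and a log2 ratio of -0.25. With the shorter pentamer ATTTA, which is part of the heptamer, SRSF6 had 12 copies and SRSF2 had 3. The pentamer was present in all 13 SRSF and TRA2 genes, in 14 of the 18 HNRNP genes and in 74.2% of all genes. Over all genes, the median log2 ratio was -0.45 with the heptamer and -0.17 without it, and 39.4% against 13.6% were lower past 1.5-fold. Across these genes, which are not independent replicates, Spearman's rho of the log2 ratio was -0.33 with the number of heptamers and -0.49 with the A and T content of the 3′UTR. Over the 31 members these values were -0.26 and -0.25, as descriptions of few genes. They were -0.20 and 0.03 over the 13 SRSF and TRA2 genes, and -0.11 and -0.25 over the 18 HNRNP genes. For the length of the 3′UTR, rho was -0.24 over all genes and -0.095 over the members. It was -0.47 over the SRSF and TRA2 genes and 0.12 over the HNRNP genes. Whether the longest annotated 3′UTR is the one present in these cells was not analysed. For HNRNPA0 it has 7498 bases, more than the 2967 bases of its assembled locus. In the SRSF and TRA2 class the median log2 ratios with and without the heptamer were -0.62 over 7 genes and -0.40 over 6, with 5 and 2 genes past 1.5-fold. In the HNRNP class they were -0.29 over 4 genes and -0.23 over 14, with 0 and 1. The 3′UTRs of both classes were similar in base composition, with a median of 65.3% A and T in the SRSF and TRA2 genes and 64.8% in the HNRNP genes, against 57.9% over all genes. A match to these letters is a description of the annotated sequence and not a measured binding site.

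**Figure D4:**
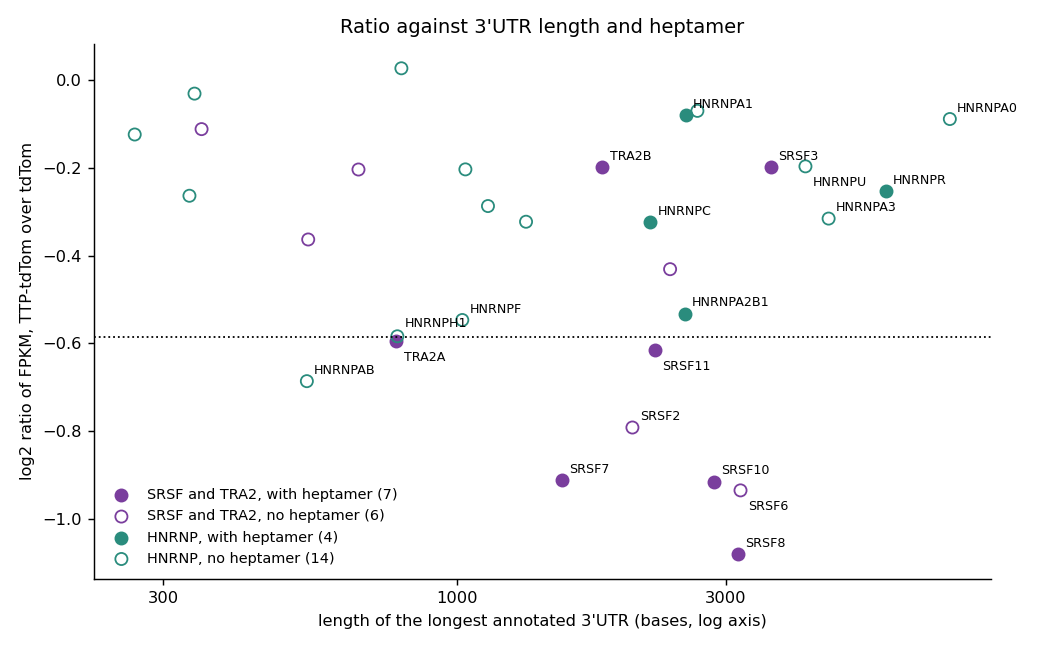
Log2 ratio of the group FPKM values against the length of the longest annotated 3′UTR (bases, log axis) for 31 members. Filled symbols hold the heptamer and open symbols do not; the dotted line is 1.5-fold lower, and below it lie both filled (SRSF7, SRSF8, SRSF10, SRSF11, TRA2A) and open (SRSF2, SRSF6, HNRNPAB) symbols.

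A further annotated feature was common to the SRSF and TRA2 genes irrespective of their ratio. All 13 genes of the class have at least 1 transcript annotated in GENCODE as a target of nonsense-mediated decay, as have 10 of the 18 HNRNP genes and 43.6% of the 11517 genes found there by name. SRSF7 has 6 such transcripts and HNRNPU has 9, while HNRNPAB, HNRNPF and HNRNPA3 have 0. The gene-level FPKM adds up productive and decayed transcripts, so their shares were not analysed here.

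Other genes of the splicing machinery were compared as 6 lists with 109 symbols, of which 104 had a mean FPKM of at least 1. In these lists 22 genes, or 21.2%, were lower past 1.5-fold and 0 were higher, close to the 22.9% of all genes. The kinases that phosphorylate SR proteins and the importin TNPO3, which carries SR proteins into the nucleus, had a median log2 ratio of -0.36 over 8 genes with 2 past 1.5-fold. SRPK2 had 16.5 FPKM in tdTom cells against 9.46 in TTP-tdTom cells and PRPF4B had 43.3 and 27.8, whereas SRPK1 had 82.4 and 78.0. TNPO3 was higher in the TTP-tdTom group, at 35.6 FPKM in tdTom cells and 40.9 in TTP-tdTom cells, but inside 1.5-fold.

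Proteins related to SR proteins, which have serine and arginine stretches but other domain plans, had 4 of 18 genes past 1.5-fold and a median log2 ratio of -0.34. The lowest were SCAF11, with 49.1 and 26.0 FPKM in the tdTom and TTP-tdTom groups, and SREK1, with 7.05 and 4.06. The highest were U2AF1, the subunit that reads the AG at the 3′ splice site, with 189.7 and 182.4, and LUC7L, with 21.2 and 22.4. Proteins of the hnRNP kind that go by other symbols had 3 of 16 past 1.5-fold, a median of -0.38 and thus a lower median than the HNRNP genes themselves. PTBP3, a paralog of the repressor PTBP1, had 12.2 and 6.02 FPKM and HNRPLL, a paralog of HNRNPL, had 6.91 and 4.10, while TARDBP and RALY had log2 ratios of -0.19 and -0.13.

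Of the lists, that of other splicing regulators had the highest share, with 5 of 15 genes lower past 1.5-fold. This was 33.3%, beside 22.9% of all genes, and the median log2 ratio of the list was -0.40. Those 5 included MBNL1, MBNL2 and MBNL3, the last at a mean FPKM of only 1.59. MBNL1, a muscleblind protein, had 58.1 FPKM in tdTom cells against 16.0 in TTP-tdTom cells, a log2 ratio of -1.86 that was lower than that of any SRSF, TRA2 or HNRNP gene. QKI had 25.1 and 11.8 FPKM, whereas RBM5 had 19.7 and 22.5, and RBM4, in a row that also names RBM14, had 31.2 and 30.3. The core of the spliceosome was nearer to the middle of all genes. Among the U1 and U2 snRNP proteins 4 of 22 genes were past 1.5-fold at a median of -0.24. The lowest were SF3B14 with 55.2 and 27.4 FPKM and PHF5A with 37.8 and 22.2, both small subunits of SF3B, and the highest were SNRPD3 and SF3A3 with log2 ratios of -0.01 and 0.14. Among the tri-snRNP, NTC and helicase genes 4 of 25 were past 1.5-fold, also at a median of -0.24. SNRNP27 had 19.6 and 9.91 FPKM and the helicase DHX15 had 46.6 and 25.8, against log2 ratios of 0.04 for DDX23 and 0.17 for PRPF4.

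**Figure D5:**
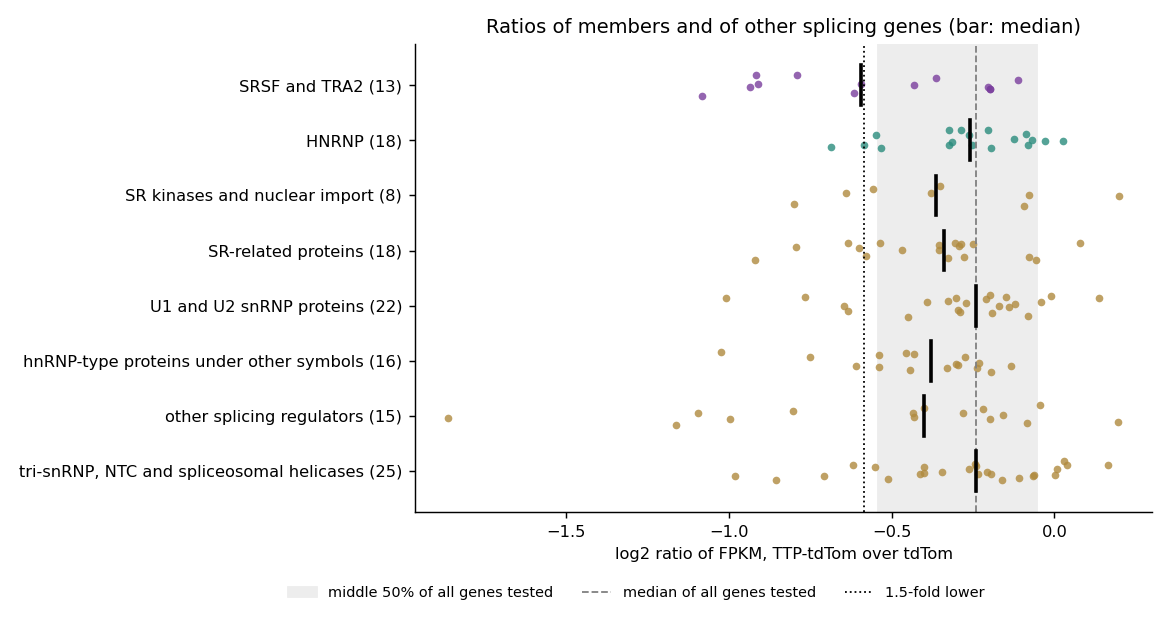
Log2 ratio of the group FPKM values for each gene (points) of the SRSF and TRA2 class, the HNRNP class and 6 lists of other splicing genes, with the number of genes in brackets and the median of each set as a black bar. The SRSF and TRA2 median of -0.59 lies outside the grey band of the middle 50% of all genes. The other medians lie between -0.40 and -0.24. At a mean FPKM of at least 10 the SRSF and TRA2 median was -0.43. That value lies inside the middle 50% of such genes, from -0.57 to -0.11.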

How the data were processed

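Strand-specific libraries of 3 tdTom and 3 TTP-tdTom samples were sequenced by the authors in paired-end runs, and per the submitters' processing notes TopHat2 2.0.13 and Cufflinks 2.2.1 were used. The study's methods give Hs37D5 (GRCh37 with decoy) as the genome. The authors' deposited table gives FPKM values, 1 per group at each of 406165 assembled loci. It also holds the fold change, p-value and q-value of a comparison made by the authors, which were not used. Because there is 1 value per group, no test was run and no fit per sample was possible. A planned sequencing depth is stated in the labels. The depth obtained and the fragments per gene are unknown, since FPKM holds no counts, and no interval is given.

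For each symbol with an NM_ name the row with the most RefSeq names was taken, then the highest FPKM. In total, 4 of the 33 members share a row with another gene. Genes compared had a mean FPKM of at least 1 and values above 0 in both groups. All coordinates are the bounds of the assembled locus in the row, which can reach past the named gene. Starts are counted from 1. The members and lists were chosen with earlier results of these data known. Named genes were all members, ZFP36 and, in each list, the 2 lowest and 2 highest ratios at a mean FPKM of at least 5. Cell type markers were KRT8, KRT18, KRT19, EPCAM, CDH1 (epithelial) and sets for prostate luminal, stromal, endothelial and leukocyte cells, of which 1 marker is not reported here. GENCODE release 29 transcripts were matched by name, with RefSeq synonyms, for 11517 genes, of which 11446 had a 3′UTR; no coordinate of that annotation is given. The functions were tested on simulated data. The alternatives were other pseudocounts, filters, scalings, rows and folds. Python 3.11.15, numpy 2.4.6, pandas 2.3.3 and matplotlib 3.10.9 were used.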

Additional observations from a re-analysis of the deposited data

Results flagged for a closer look

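Rows that carry a symbol of the same kind but were not used for a member were checked for values above the tdTom group past 1.5-fold. A second row of SRSF4, at the same coordinates as the one used, had a ratio of 1.78, with 0.381 FPKM in tdTom cells against 0.680 in TTP-tdTom cells. The pseudogene HNRNPA3P1, on chromosome 10 from 44282860 to 44286353, stands at a pair of rows with ratios of 3.15 (0.247 and 0.777 FPKM) and 1.75 (0.783 and 1.37 FPKM). All 3 rows were close to or below 1 FPKM, where 1 value per group gives no measure of error, and the differences were not tested.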

How the results depend on the processing

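No paired analysis was possible because the table holds 1 value per group, and for the same reason leaving out each replicate was not run. Direction held in all medians under every alternative run. Pseudocounts of 0.1 and 1, the sum over all rows of a symbol, the row with the highest FPKM and, chosen after seeing the data, leaving out members whose row names another gene kept each count within 1.5 times and each median within 0.1, but with a pseudocount of 1 TRA2A was no longer lower past 1.5-fold, which left 7 members, 6 of them SRSF genes. Centred on the median of all genes, 4 members were lower past 1.5-fold instead of 8, made up of 4 SRSF and TRA2 genes and 0 HNRNP genes, and the median log2 ratio was -0.075 over the members, -0.35 over SRSF and TRA2 and -0.018 over HNRNP. With FPKM rescaled to the same sum over rows with an NM_ name, these values were 4, 4, 0, -0.095, -0.37 and -0.037. HNRNPAB, SRSF11, SRSF2 and TRA2A were lost in both scalings, which shift all log2 ratios alike by 0.24 and 0.22. At a mean FPKM of at least 10 the SRSF and TRA2 median was -0.43, as SRSF8 and SRSF10 were left out, and with no filter 1 member (SRSF12) was higher past 1.5-fold instead of 0. At 2-fold 1 member was lower, 1 of the SRSF and TRA2 genes and 0 of the HNRNP genes, and at 80% or less of the control value 15 members were lower, 6 of them HNRNP genes. Low FPKM values such as those of SRSF10, SRSF8 and HNRNPA1L2 rest on fewer fragments, but their number is unknown.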

Other observations

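HNRNPU-AS1, a long noncoding RNA next to HNRNPU on chromosome 1 from 244998639 to 245012242, had 14.3 FPKM in tdTom cells against 9.90 in TTP-tdTom cells, a ratio of 0.694, while HNRNPU itself had a ratio of 0.873. A second row of HNRNPK had 0.612 and 0.107 FPKM against 67.0 and 53.6 at the row used. In the longest mRNA of SRSF1, 57.4% of the windows of 75 bases also occur in the annotated transcript AC015813.2, and for HNRNPL 27.8% occur in transcripts of other genes.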
